A study of Rattus norvegicus with 4 samples.

Results

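The mitochondrial genome encodes 6 protein subunits of respiratory complexes III, IV and V: CYTB (ENSRNOG00000031766), COX1 (ENSRNOG00000034234), COX2 (ENSRNOG00000030371), COX3 (ENSRNOG00000030700), ATP6 (ENSRNOG00000031979) and ATP8 (ENSRNOG00000033299). They were taken by symbol from the deposited gene table, where each of the 6 was found on a single row, out of 14137 gene identifiers. The cells were neonatal rat ventricular cardiomyocytes, heart muscle cells taken into primary culture along with some other cells of the heart. All received a lentivirus, whose short hairpin RNA was a control (labelled WT) or was directed at Crat (labelled KO), and were harvested at day 5. Crat encodes carnitine acetyltransferase, which transfers acetyl groups from coenzyme A to carnitine and back, and the study's title links its depletion to dilated cardiomyopathy. There were 2 libraries per group. The control arm carries a hairpin and virus as well, so "WT" and "KO" describe a knockdown comparison and not genotypes of animals. Strain, sequence of the hairpins and pooling of animals are not stated in the labels.

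Each of the 6 proteins sits in the inner mitochondrial membrane. CYTB is the cytochrome b of complex III, which passes electrons from ubiquinol to cytochrome c. COX1, COX2 and COX3 form the core of complex IV, cytochrome c oxidase, and ATP6 and ATP8 belong to the membrane part of complex V, the ATP synthase. The other subunits of these complexes are encoded in the nucleus, made in the cytosol and imported. The mitochondrial genes are transcribed as long precursors that are cut at the transfer RNAs between them. In mammals ATP8 and ATP6 share an mRNA in which their reading frames overlap. Cardiac muscle is rich in mitochondria and carries these transcripts at high levels.

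Depth was very uneven, from 321516 reads in Crat hairpin replicate 1 to 23680064 in control replicate 1, with 1321735 in control replicate 2 and 1622998 in Crat hairpin replicate 2. Values are RPM, reads scaled to the library total and not divided by gene length, so levels are compared between groups and not between genes. Crat itself stood at 148 and 156 RPM in the controls and at 24.9 and 19.7 RPM with the Crat hairpin, a log2 fold change of -2.72 ± 0.19 (SE). Each SE after a ± sign, or drawn in a figure, is moderated by limma. It draws a gene's variance toward a trend over all tested genes and is not the scatter of that gene's replicates alone. In total 1631 of 12949 tested genes were higher with the Crat hairpin (12.6%) and 823 were lower (6.36%), at an adjusted p under 0.05 in limma with Benjamini-Hochberg adjustment. With median-of-ratios scaling the split was 1044 higher and 1254 lower. With TMM scaling it was 1005 higher and 1281 lower. The median log2 fold change of all tested genes was 0.15 as deposited and -0.03 with median-of-ratios scaling.

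All 6 genes fell with the Crat hairpin, against the background of 6.36% of tested genes called lower. Their median log2 fold change was -1.61, and the log2 fold changes ran from -0.89 for COX1 to -2.30 for CYTB. In each of the 6 genes both Crat hairpin libraries lay below both control libraries, which held for 21.7% of tested genes in this direction. The direction was the same under each of the 16 alternative settings. Those that alter only the filter on low values, the variance model or the replicate block cannot change a fold change. Of the calls, 1 depended on the setting: COX1 did not pass without a variance trend (limma adjusted p = 0.0812). In that setting the others passed narrowly, with limma adjusted p from 0.0255 for CYTB to 0.0488 for ATP8. The labels do not tell whether replicate libraries are separate cultures, and the p-values may therefore measure technical spread alone.

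**Figure D1:**
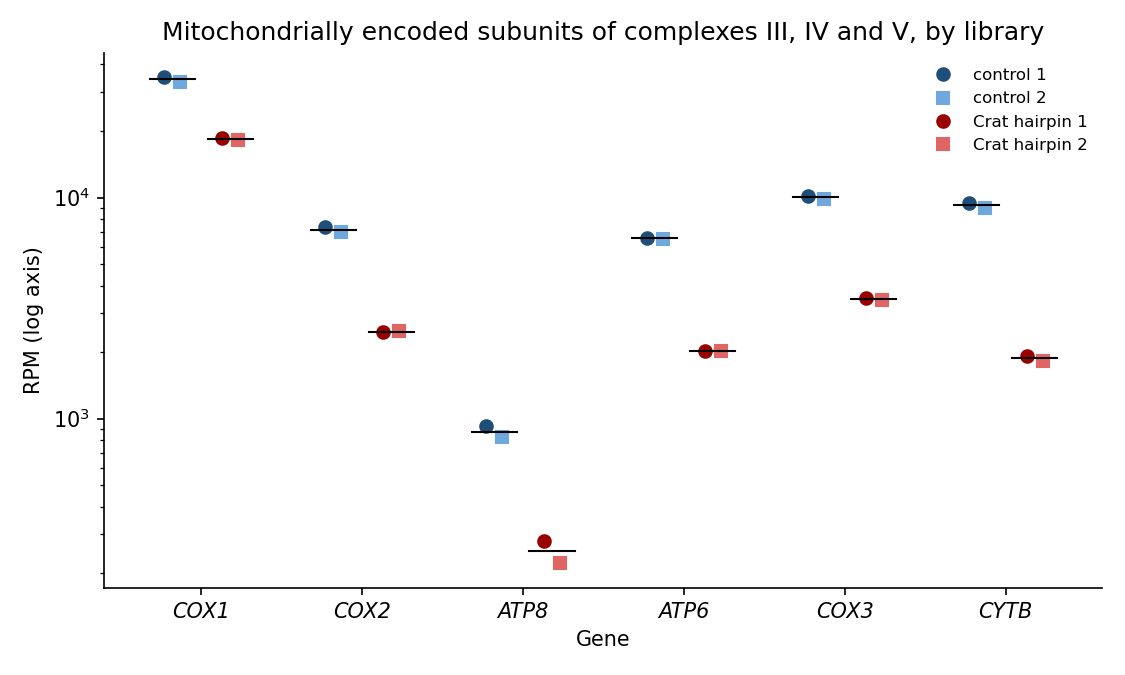
RPM (log axis) of the 6 genes in each library, with control libraries in blue, Crat hairpin libraries in red and a black line at each group mean. For each gene the red points lie below the blue ones, and the gap is widest for CYTB and narrowest for COX1.

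CYTB, the only mitochondrially encoded subunit of complex III, measured 9488 and 8938 RPM in the controls and 1928 and 1824 RPM with the Crat hairpin. The replicates of a group lay close together, and the groups were far apart. The mean with the Crat hairpin was 20.4% of the control mean, a 4.91-fold lower level. Its log2 fold change was -2.30 ± 0.04 (moderated SE, 2 libraries against 2, limma adjusted p = 2.5e-09). Among the 244 genes that averaged 500 RPM or more, CYTB was at rank 2 from the most negative change, behind ND4L, another mitochondrially encoded gene. ATP8, ATP6, COX2 and COX3 were at ranks 12, 14, 19 and 20. Over all 12949 tested genes CYTB was at rank 70.

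COX1, the catalytic subunit of cytochrome c oxidase, stood at 34996 and 33489 RPM in the controls and at 18587 and 18284 RPM with the Crat hairpin. It drew more reads than any other gene in each of the 4 libraries, on a scale that is not corrected for length. The groups did not overlap, and 53.8% of the control level was left. The log2 fold change was -0.89 ± 0.02 (SE; limma adjusted p = 1.6e-08), at rank 46 of the same 244 genes.

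COX2, which takes up electrons from cytochrome c, stood at 7355 and 6984 RPM in the controls and at 2460 and 2479 RPM with the Crat hairpin. COX3, the third core subunit, stood at 10218 and 9877 RPM in the controls and at 3521 and 3424 RPM with the Crat hairpin. Both kept a like part of their control level, 34.4% for COX2 and 34.6% for COX3. The COX2 log2 fold change was -1.54 ± 0.04 and that of COX3 -1.53 ± 0.03 (SE; limma adjusted p = 8.2e-09 and 4.9e-09).

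ATP6, which with the c ring forms the proton path of ATP synthase, stood at 6543 and 6522 RPM in the controls and at 2028 and 2015 RPM with the Crat hairpin. The replicates of ATP6 were the closest of the 6 genes, within a factor of 1.01 in each group. Its level fell to 30.9% of the control, a log2 fold change of -1.69 ± 0.04 (SE; limma adjusted p = 3.9e-09).

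ATP8, a small membrane subunit of the same enzyme, was the least precise. It stood at 927 and 822 RPM in the controls and at 280 and 222 RPM with the Crat hairpin, and the groups did not overlap. In Crat hairpin replicate 1 it was counted with 90 reads, whose exact Poisson 95% interval is 72.4 to 111 reads, and in replicate 2 with 360 reads. These intervals cover counting error only. The level left was 28.7% of the control, and the log2 fold change was -1.81 ± 0.11 (SE; limma adjusted p = 3.6e-06). Without Crat hairpin replicate 2 the ATP8 log2 fold change was -1.64, and without replicate 1 it was -1.97. Gene totals cannot tell apart reads from the overlapping frames of ATP8 and ATP6, or reads shared with nuclear copies of mitochondrial DNA, which are known in mammals; the labels do not state how such reads were assigned. In the authors' deposited table the adjusted p of the 6 genes ran from 0 for CYTB to 6.39e-52 for ATP8.

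Reads of the 6 genes together came to 6.95% and 6.66% of the control libraries and to 2.88% and 2.82% of those with the Crat hairpin. The difference was -3.96 percentage points, with SDs of 0.205 and 0.0393 within the groups. An exact two-sided permutation test gave p = 0.333, the smallest p that 2 libraries against 2 can reach. Without COX1, the other 5 genes went from 3.45% and 3.31% to 1.02% and 0.996% of the reads.

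The 6 genes did not keep their proportions to each other. COX1 made up 50.3% of the reads of the 6 genes in each control library and 64.5% and 64.7% with the Crat hairpin. CYTB went from 13.6% and 13.4% to 6.69% and 6.46%. The shares of COX2, COX3 and ATP6 were also lower, with group means of 10.5% and 8.66% for COX2, 14.8% and 12.2% for COX3, and 9.60% and 7.09% for ATP6. A share of a fixed total must fall in some genes where it rises in another, so the ratio between genes is given next.

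**Figure D2:**
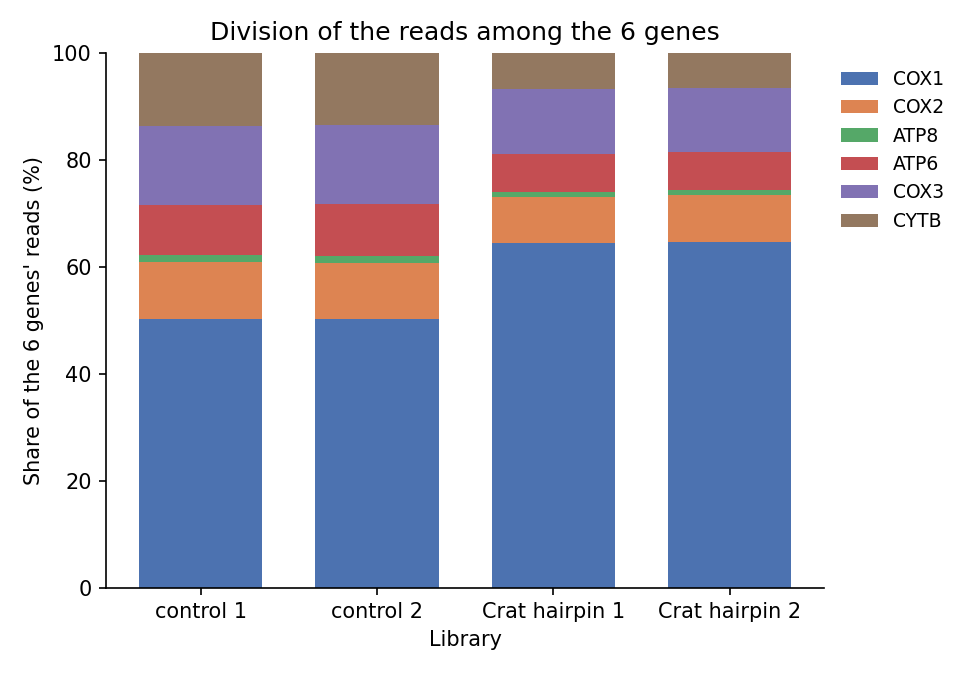
Share of the reads of the 6 genes (%) taken by each gene, 1 stacked bar per library. The COX1 segment grows from 50.3% in the controls to 64.5% and 64.7% with the Crat hairpin, and the CYTB segment shrinks.

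A ratio of 2 genes within a library does not depend on scaling. There were 3.69 and 3.75 COX1 reads per CYTB read in the controls and 9.64 and 10.02 with the Crat hairpin. This ratio thus differed by 1.40 on the log2 scale, a 2.64-fold difference, with a pooled SD of 0.0303 between replicates. COX1 also moved against COX2, COX3, ATP6 and ATP8, by 0.64, 0.64, 0.80 and 0.92 on the log2 scale, each upward for COX1. CYTB moved against the other members as well, with COX3 to CYTB going from 1.08 and 1.11 reads to 1.83 and 1.88.

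Among the 4 genes between these extremes, the ratios differed by at most 0.28 on the log2 scale. COX2 to ATP6 differed by 0.16 with a pooled SD of 0.0363, and ATP6 to COX3 by -0.16 with a pooled SD of 0.0271. COX2 to ATP8 differed by 0.27 with a pooled SD of 0.180, and ATP8 to COX3 by -0.28 with a pooled SD of 0.160. Without Crat hairpin replicate 2 the differences with ATP8 were 0.099 and -0.129. In these 4 pairs the groups did not overlap, and in the other two they did. The COX2 to COX3 ratio was 0.720 and 0.707 in the controls and 0.699 and 0.724 with the Crat hairpin, and the log2 difference was -0.0042 with a counting error of 0.0276 (SE). ATP8 to ATP6, the pair on a shared mRNA, gave 0.142 and 0.126 reads in the controls and 0.138 and 0.110 with the Crat hairpin. These groups overlapped too, with a log2 difference of -0.12 and a counting error of 0.0725 (SE). Both counting errors are for reads pooled within a group. The differences weight the libraries equally, also the shallow Crat hairpin replicate 1, so these errors are too small for them. Of the 15 pairs, 13 had groups that did not overlap. The exact permutation test gave p = 0.333 for each of those 13 pairs, or 0.385 after Benjamini-Hochberg adjustment over the 15 pairs, and no pair could have gone lower. Whether the members fell by different amounts therefore rests on the size of the differences against the spread, not on a test.

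Set in their textbook order along the mitochondrial genome, genes that lie later in the heavy-strand transcript tended to have larger falls, with exceptions. The order from ND1 to CYTB is background knowledge and the pattern was noticed in the values. COX1, the first member in that order, fell least, also less than ND1 and ND2 before it. COX2, ATP8, ATP6 and COX3 follow it, with log2 fold changes between -1.53 and -1.81, and COX3, the last of these, fell less than ATP8 and ATP6. CYTB, at the far end, fell most of the 6. Over the 6 genes Spearman's rho between order and log2 fold change was -0.60 and Pearson's r was -0.84.

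The same order can be followed through the complex I subunits of this genome. ND1 and ND2, which precede COX1, had log2 fold changes of -1.22 and -1.25. ND3, which follows COX3, had -1.60, and ND4L, ND4 and ND5, between ND3 and CYTB, had -2.45, -2.13 and -2.12, so ND4 and ND5 fell less than ND4L before them. Over these 12 heavy-strand genes rho was -0.85 and r was -0.86. Against the control mean, rho was -0.85 in Crat hairpin replicate 1 and -0.87 in replicate 2, while the difference between the control libraries gave -0.39. These are descriptions across genes that share libraries and precursor transcripts, and they are no test. ND6, on the light strand, had a log2 fold change of -2.05.

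**Figure D3:**
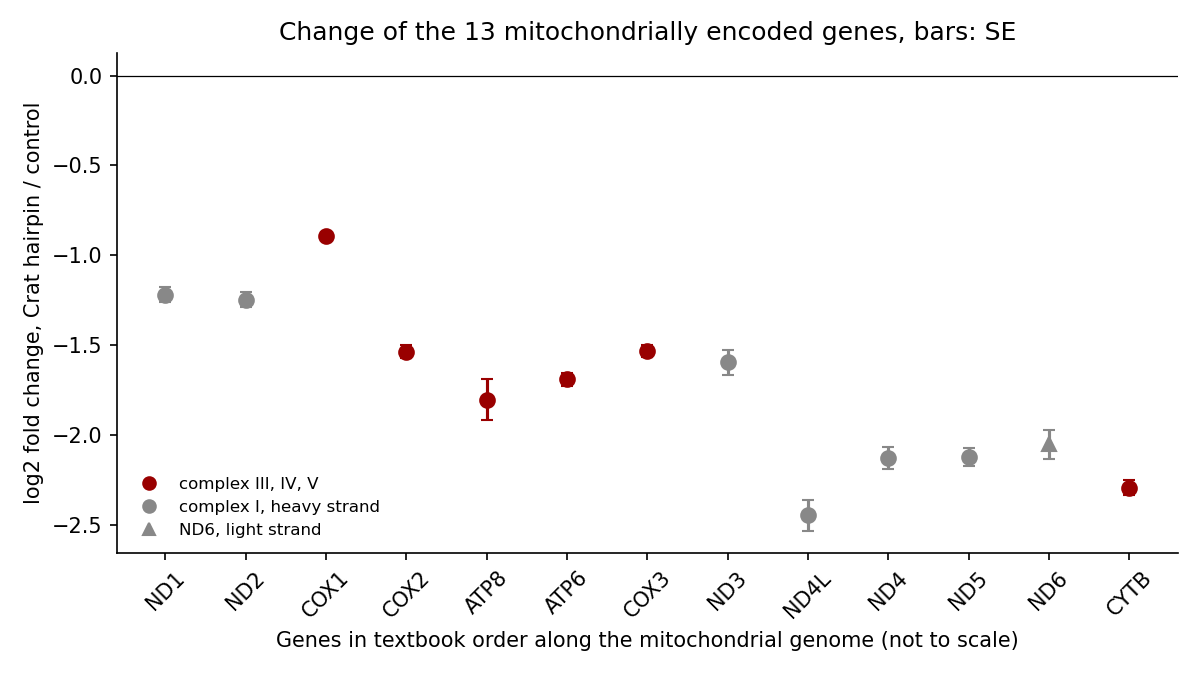
Log2 fold change with SE of the 13 mitochondrially encoded genes in textbook order, not to scale, with complex III, IV and V subunits in red, heavy-strand complex I subunits as grey circles and ND6 of the light strand as a grey triangle. COX1 is highest at -0.89, and the points from ND4L onward lie at or below -2.05.

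The 6 genes held a larger part of the 13 genes' reads with the Crat hairpin. That part was 73.4% and 73.4% in the controls and 79.2% and 78.0% with the Crat hairpin, a difference of 5.24 percentage points (exact permutation p = 0.333, the smallest possible). This rise rests on COX1. Without COX1, the other 5 genes went from a mean of 3.38% of reads in the controls to 1.01% with the Crat hairpin. The 7 complex I subunits went from 2.47% to 0.775%, so these 5 genes did not gain on complex I. All 7 complex I subunits fell as well, with log2 fold changes between -1.22 and -2.45, which overlaps the range of the 6 genes.

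Some nuclear-encoded subunits of the same complexes fell as well; over all tested genes 6.36% were called lower and 12.6% higher. For complex III, 2 of 7 tested nuclear subunits fell and 0 rose, with a median log2 fold change of -0.22, beside -2.30 for CYTB. The 2 were Uqcrh, the hinge protein near cytochrome c1, at -1.21, and Uqcrfs1, the Rieske iron-sulfur protein, at -0.38. Cyc1, cytochrome c1 itself, stood at 356 and 334 RPM in the controls and at 295 and 343 RPM with the Crat hairpin, and the groups overlapped. Under median-of-ratios and TMM scaling 4 of these 7 fell, in edgeR 6, without either control library 1, without Crat hairpin replicate 2 4, and without a variance trend 0. Without either control library Uqcrfs1 lost its call (adjusted p = 0.303 and 0.182).

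For complex IV, 8 of 12 tested nuclear subunits fell, beside 6.36% of all tested genes, and 0 rose, with a median of -0.50. Cox6c had a log2 fold change of -1.41, Ndufa4, now counted with this complex, -1.28, Cox5b -1.03 and Cox7c -0.88. Cox4i1, the ubiquitous form of the largest nuclear subunit, fell by 0.41 and Cox6a2, the muscle form of subunit 6a, by 0.47. The liver-type form Cox6a1 did not pass, with -0.18, nor did Cox7a1, at -0.82 and without reads in Crat hairpin replicate 1, or Cox4i2, at 0.0043. Cox7a2 fell under the filter on low values, and Cox8a and Cox8b were not analysed here. Without control replicate 1, 2 of the 12 fell, and Cox6c (adjusted p = 0.126), Cox7c (0.0668), Cox4i1 (0.160) and Cox6a2 (0.211) lost their calls; without control replicate 2 Cox6a2 did (0.0561).

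For complex V, 10 of 14 tested nuclear subunits fell, beside 6.36% of all tested genes, and 0 rose, with a median of -0.51. Atp5mf had a log2 fold change of -1.19, Atp5pf -0.75, and Atp5mc3 and Atp5mc2, which encode the c ring that ATP6 works against, -0.73 and -0.68. Atp5f1b, the catalytic beta subunit, stood at 3260 and 3228 RPM in the controls and at 2880 and 2790 RPM with the Crat hairpin. Without control replicate 1, 1 of the 14 fell, and without control replicate 2, 5. Atp5mf (adjusted p = 0.0837), Atp5pf (0.241) and Atp5mc2 (0.119) lost their calls without control replicate 1, and Atp5pf without control replicate 2 (0.0716). Without a variance trend none of the nuclear subunits of complexes IV and V passed. In none of the 3 complexes did a nuclear subunit rise in edgeR or DESeq2 (0 each) or at an unadjusted p under 0.05 (0).

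**Figure D4:**
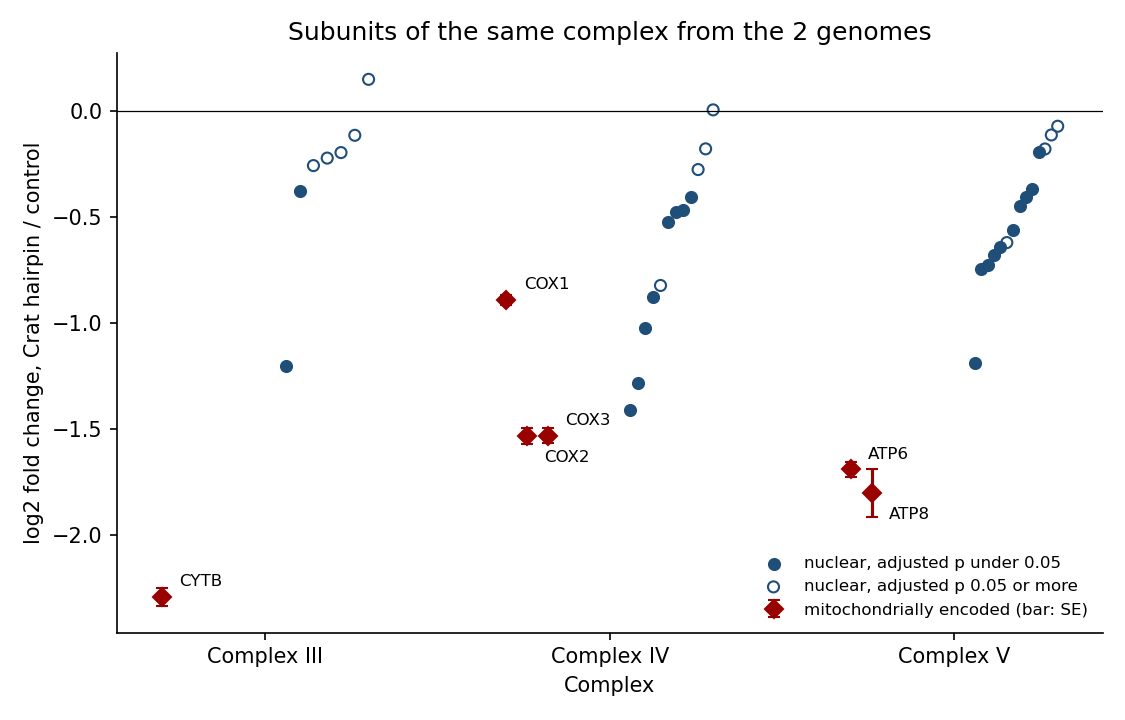
Log2 fold changes of the mitochondrially encoded (red diamonds, bars give SE) and nuclear-encoded subunits (blue, filled where the adjusted p was under 0.05) of complexes III, IV and V. In complexes III and V the red points lie below each blue point, and in complex IV the COX1 value of -0.89 lies among the nuclear subunits.

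The ratio of mitochondrially encoded to nuclear-encoded reads was lower with the Crat hairpin within each complex. For complex III its log2 value was 2.33 and 2.34 in the controls and 0.38 and 0.23 with the Crat hairpin, a difference of -2.03. For complex IV it was 4.22 and 4.19 in the controls and 3.76 and 3.65 with the Crat hairpin, a difference of -0.50. For complex V it was -0.02 and -0.01 in the controls and -1.44 and -1.45 with the Crat hairpin, a difference of -1.43. No groups overlapped, and the pooled SDs were 0.0726, 0.0558 and 0.0052. The exact permutation p was 0.333 for each complex, also after adjustment over the 3 complexes. The complex V SD of 0.0052 lay below the counting error of the ATP6 log2 fold change alone, 0.0233 (SE). That error is for reads pooled within a group and is itself too small where libraries weigh equally. In Crat hairpin replicate 1 ATP6 had 652 reads and ATP8 had 90. The complex V SD therefore understates the error of the complex V difference, whose own counting error was not computed. The mitochondrially encoded part of complex V went from 0.747% and 0.734% of reads to 0.231% and 0.224%, while the listed nuclear part went from 0.759% and 0.741% to 0.628% and 0.610%. That nuclear part is weighted to Atp5f1b and Atp5f1a, with control means of 3244 and 1623 RPM. Their log2 fold changes were -0.19 and -0.11, beside a median of -0.51 over the tested nuclear subunits of complex V. The complex IV ratio is weighted to COX1, which fell least. In the controls COX1 took 3.50% and 3.35% of reads, out of 5.26% and 5.03% for COX1, COX2 and COX3 together.

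Of 29 tested assembly factors of these complexes, 4 rose and 0 fell, with a median of 0.06, beside 12.6% of all tested genes called higher. At an unadjusted p under 0.05, 1 was lower, while edgeR called 3 lower and DESeq2 0. Tmem70, which helps assemble the ATP synthase c ring, stood at 10.7 and 4.54 RPM in the controls and at 31.1 and 33.9 RPM with the Crat hairpin, a log2 fold change of 2.06 ± 0.41 (SE). Tmem70 had 6 reads in control replicate 2 and 10 in Crat hairpin replicate 1. Sco1, a copper chaperone for COX2, rose by 1.23, Atpaf1, an ATP synthase assembly factor, by 0.91 and Cox15, needed for the haem of COX1, by 0.91. Without either control library Sco1, Atpaf1 and Cox15 lost their calls, and 1 factor rose. Without Crat hairpin replicate 2 there were 7, in DESeq2 1 and without a variance trend 0, with Tmem70 at an adjusted p of 0.103. Atpaf1 also lost its call under median-of-ratios scaling (adjusted p = 0.0822). Taco1, the translational activator of COX1, had 7.475 and 9.84 RPM in the controls and 9.33 and 5.55 RPM with the Crat hairpin, the latter from 3 and 9 reads. Surf1, which acts on COX1, and Bcs1l, which inserts the Rieske protein into complex III, did not pass, with log2 fold changes of 0.50 and -0.33. Bcs1l had 3 reads in Crat hairpin replicate 1.

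Among 34 genes of mitochondrial transcription and RNA handling 2 rose and 0 fell, beside 12.6% of all tested genes called higher and 6.36% lower. Their median of 0.17 lay near the 0.15 of all tested genes. Of these 34, 1 was lower at an unadjusted p under 0.05, and edgeR called 2 lower and DESeq2 0. Pnpt1, an exoribonuclease that degrades mitochondrial RNA, stood at 36.1 and 31.8 RPM in the controls and at 84.0 and 94.3 RPM with the Crat hairpin, a log2 fold change of 1.37 ± 0.18 (SE; limma adjusted p = 6.8e-04). Without a variance trend Pnpt1 did not pass (adjusted p = 0.0561), and 0 of the 34 rose. Fastk, a mitochondrial RNA-binding protein, rose by 0.78. Fastk lost its call under median-of-ratios scaling (adjusted p = 0.0783) and without either control library (0.230 and 0.206), while 6 genes rose without Crat hairpin replicate 1 and 8 without replicate 2. Polrmt, the mitochondrial RNA polymerase, had 16.0 and 15.9 RPM in the controls and 27.99 and 28.34 RPM with the Crat hairpin, which did not pass (limma adjusted p = 0.0802). Polrmt had 21 reads in control replicate 2 and 9 in Crat hairpin replicate 1. Tfam, which packages mitochondrial DNA, and Lrpprc and Slirp, which stabilise mitochondrial mRNAs, did not pass, with log2 fold changes of 0.16, 0.11 and -0.08.

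Cardiomyocyte markers moved with the 6 genes, and most smooth muscle and pericyte markers, given below, did so too. Of 10 tested cardiomyocyte markers, 8 fell and 0 rose (0 also at an unadjusted p under 0.05 and in edgeR and DESeq2). Their median log2 fold change was -0.96, beside 6.36% of all tested genes called lower. Without a variance trend 4 of the 10 fell. Their summed level was 29987 and 30521 RPM in the controls and 11813 and 12184 RPM with the Crat hairpin. In bulk RNA, fewer cardiomyocytes and less of these transcripts per cell cannot be told apart. Defining markers such as Tnnt2, Myh6 and Actc1 were well expressed in all 4 libraries, as the label has it.

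The log2 ratio of the 6 genes together to that marker sum was 1.21 and 1.13 in the controls and 1.29 and 1.21 with the Crat hairpin, overlapping groups with a difference of 0.08 (exact permutation p = 0.667; a comparison chosen after the data were seen). The single genes differed. Relative to the marker sum COX1 was 0.44 higher on the log2 scale with the Crat hairpin, and COX2, COX3, ATP6 and ATP8 were lower, by -0.20, -0.20, -0.36 and -0.47. CYTB had the largest difference, -0.96. The markers themselves ranged from a log2 fold change of -2.21 for Tnnc1 to -0.02 for Ryr2, so another choice of markers would give other ratios.

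**Figure D5:**
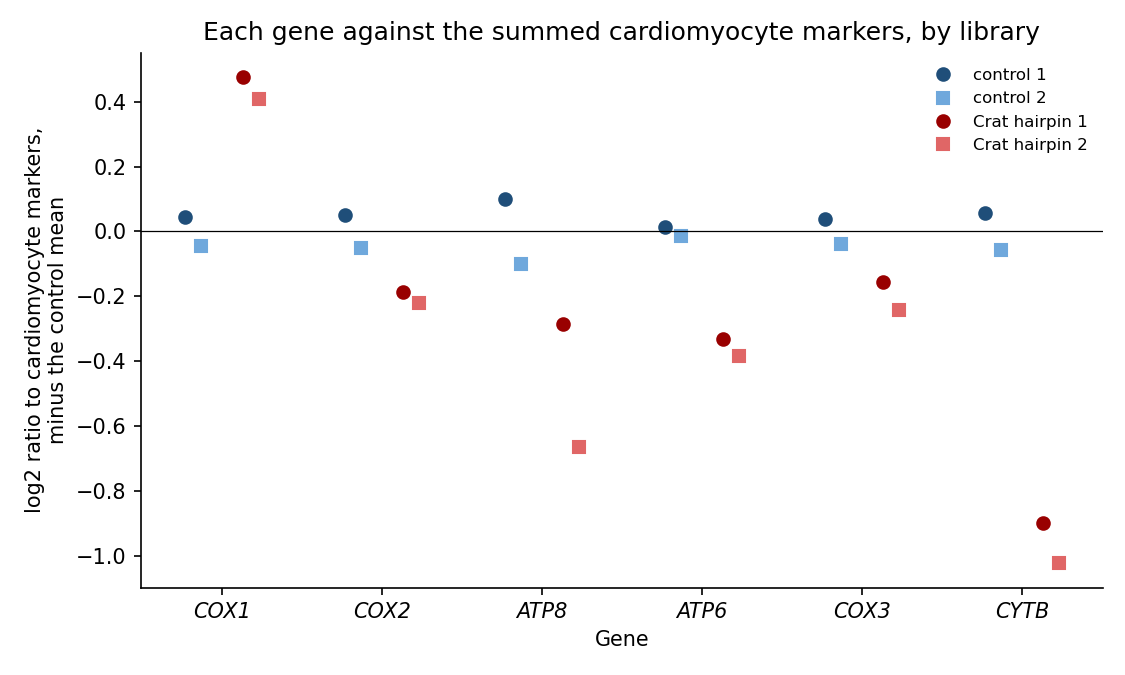
Log2 ratio of each gene to the summed cardiomyocyte markers, minus its mean in the controls, for the 4 libraries. COX1 lies above 0 in both Crat hairpin libraries, and the other 5 genes lie below 0 in both, CYTB lowest.

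Markers of other cells moved in both directions, beside 6.36% of all tested genes called lower and 12.6% higher. Of 9 fibroblast markers 5 fell and 2 rose, and their sum was 22932 and 23922 RPM in the controls and 16805 and 17143 RPM with the Crat hairpin. Without a variance trend 0 of these 9 fell and 1 rose. Of 8 smooth muscle and pericyte markers 6 fell and 1 rose, and their sum went from 6673 and 6789 RPM to 2386 and 2507 RPM. Their median log2 fold change was -1.46, nearer to the -1.61 of the 6 genes than the -0.96 of the cardiomyocyte markers. A fall alongside the 6 genes was therefore not particular to cardiomyocyte markers. Without a variance trend 3 of these 8 fell. The riser, Pdgfrb, did not pass under median-of-ratios or TMM scaling, in edgeR or DESeq2, without a variance trend, or without control replicate 1, each leaving 0 higher. The endothelial sum was 50.7 and 62.0 RPM in the controls and 65.3 and 58.5 RPM with the Crat hairpin, with 1 of 4 tested markers lower and 1 higher (0 and 0 without a variance trend or without control replicate 1, and 0 lower without control replicate 2), and Vwf had no read in either Crat hairpin library. The leukocyte sum was 52.2 and 50.7 RPM in the controls and 62.2 and 58.5 RPM with the Crat hairpin, with 0 of 8 called by limma, 0 at an unadjusted p under 0.05, and 0 by edgeR or DESeq2. The part of the cell mixture in the falls of the 6 genes was not tested.

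Outside the mitochondrial genome, 5 genes had profiles nearest to the mean of the 6, by Euclidean distance over the 4 libraries of log2 values centred on the control mean, among 4108 named genes that averaged 50 RPM or more. They were Col14a1 at a distance of 0.102, Sorbs2 at 0.127, Myom1 at 0.136, Enah at 0.140 and Cap1 at 0.156. Among the 6 genes themselves the distances ran from 0.117 for ATP6 to 0.947 for CYTB and 1.04 for COX1, so the mean profile describes COX2, COX3 and ATP6 better than COX1 or CYTB. Col14a1 stood at 1526 and 1578 RPM in the controls and at 498 and 490 RPM with the Crat hairpin.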

How the data were processed

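RNA was sequenced from 4 libraries, 2 per group. The authors deposited a table with a signal per library headed TPM, group means, and for each row a p-value with its adjusted form. The submitters' processing notes name kallisto, DESeq2 and the build mRatBN7.2, without versions or roles; the way gene values were summed is not stated. In each library 100% of the deposited signal values are whole multiples of 1 step within 0.02 of a read, so they are RPM without length correction, and the reads were recovered. The 14318 rows hold 14137 identifiers, each used once. Genes averaging 1 RPM or more were tested on log2(RPM + 1) by limma (version 3.58.1, R version 4.3.3), using a variance trend and Benjamini-Hochberg adjustment over 12949 genes, at a threshold of 0.05; fold changes on this scale understate those of low genes. The fit was tested on simulated reads. The design assumed TPM, and the test was kept for RPM. edgeR 4.0.16 on the recovered reads, an alternative, called 3839 genes; DESeq2 1.42.0 was another. Single values were compared by exact two-sided permutation tests over libraries. Members and lists were chosen with earlier results of these data known. The text names the 6 members, up to 4 called genes per nuclear list by size, isoform pairs and factors fixed by name, the 5 nearest profiles, and a few further genes (among them Cyc1, Atp5f1b, Ryr2, Vwf and the complex I subunits) chosen after their values were seen. No coordinates are given, and lengths were not used.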

Additional observations from a re-analysis of the deposited data

How the results depend on the processing

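The counts of all changed genes depended on the settings, and the direction of the falls of the 6 genes did not. Under settings that alter only the filter, the variance model or the replicate block, that direction was fixed by construction. The only call lost was that on COX1, with the same log2 fold change of -0.89 and a limma adjusted p of 0.0812 without a variance trend. In that setting the adjusted p of the others also came close to the threshold, from 0.0255 for CYTB to 0.0488 for ATP8. Over the 16 alternatives the log2 fold change ran from -2.51 to -2.25 for CYTB, -1.10 to -0.86 for COX1, -1.74 to -1.50 for COX2, -1.74 to -1.51 for COX3, -1.90 to -1.69 for ATP6 and -2.12 to -1.64 for ATP8. Against 2454 changed genes (823 lower, 1631 higher), there were 345 (79 and 266) without a variance trend, 3839 in edgeR (2065 lower) and 1616 in DESeq2 (749 higher); median-of-ratios scaling gave 1254 lower and 1044 higher, and TMM 1281 and 1005. With a library left out the count ran from 601 (control replicate 1) through 1271 (control replicate 2) and 3882 (Crat hairpin replicate 1) to 6252 (Crat hairpin replicate 2), 176 to 2620 lower and 425 to 3632 higher. Nuclear complex III subunits called lower, 2, became 4 under either scaling, 6 in edgeR, 0 without a trend and 1 to 4 with a library left out. Those of complex IV, 8, became 0 without a trend and ran from 2 to 9 with a library left out. Those of complex V, 10, became 0 and ran from 1 to 13. The share difference of the 6 genes was -4.11 percentage points when the other 7 mitochondrial genes were left out of the total. Among the 15 pair ratios 2 changed direction: COX2 to COX3 was 0.0086 without control replicate 1, and ran from -0.0299 to 0.0215 over the libraries left out, and ATP8 to ATP6 ran from -0.28 to 0.0463, the latter without Crat hairpin replicate 2.

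The replicate numbers are only numbers: deviations of same-numbered libraries correlated at 0.0061 over 12949 genes. With the replicate block 2596 genes changed (895 lower and 1701 higher) and the calls on the 6 genes held. The fold changes and the differences in share and ratio were the same by construction.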
